A study of Mus musculus with 4 samples.

Results

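The cytosolic ribosomal protein genes encode the proteins of the cytosolic ribosome, *Rpl* genes those of the large subunit and *Rps* genes those of the small subunit. They were chosen by name alone, as *Rpl* or *Rps* followed by a number and at most 1 letter, together with *Rpsa* and the P-stalk genes *Rplp0*, *Rplp1* and *Rplp2*. Pseudogenes, the S6 kinases and genes with longer suffixes were left out. This rule found 80 of the 25655 genes in the files, 49 of the large and 31 of the small subunit.

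A ribosome holds a single copy of nearly every one of these proteins, and they are made at matched amounts because unassembled ones are degraded. Their mRNAs are short, abundant and start with a run of pyrimidines, the TOP motif, through which LARP1 and mTOR control their translation. Ribosome production is high in dividing granulocyte precursors and lower in mature neutrophils, and a few of the proteins have paralogs that are made mainly in muscle or testis.

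RNA-Seq was performed on 4 libraries of neutrophils sorted from the heart on day 3 after myocardial infarction and reperfusion (MI/R), 1 library per group. The groups were WT and *Cd300a-/-* mice, each sorted into SiglecF hi and SiglecF lo cells within the CD45.2+CD11b+Ly6G+ gate. The labels name the SiglecF hi cells as SiglecF-positive and the SiglecF lo cells as SiglecF-negative. Every library was a pool of cells from 8 mice. The methods give male mice of 8 to 12 weeks, C57BL/6J as the purchased strain, a C57BL/6 background for the *Cd300a-/-* mice and a ligation of the left anterior descending artery for 60 minutes. The knockout is present in all cells of the mouse, and not in neutrophils alone. As 1 library stands for each group, no difference has a replicate check and no P value is given. Values of the 4 libraries are listed in the order WT SiglecF hi, *Cd300a-/-* SiglecF hi, WT SiglecF lo and *Cd300a-/-* SiglecF lo.

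*Cd300a* (ENSMUSG00000034652), the targeted gene, had 6640, 27, 3024 and 28 counts, or 163, 0.740, 127 and 1.06 TPM. It was low in both *Cd300a-/-* libraries, as their labels say. *Siglecf*, the gene of the sorting marker, was at 354, 405, 11.3 and 15.3 TPM and was high in both SiglecF hi libraries. *Ly6g*, the gene of the neutrophil gate, was at 11.1, 41.9, 330.4 and 889 TPM, and its level was lowest in WT SiglecF hi cells.

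The counts on genes summed to 19278243, 17632989, 9631901 and 10988619. The 80 members held 696641, 578949, 328417 and 251273 of these counts. Levels are the deposited TPM, which is corrected for gene length and library size. A ratio is log2((TPM + 1) ratio) between 2 libraries, where the added 1 pulls genes of low TPM toward 0. Its 95% counting interval is that of the ratio without the added 1, comes from the counts of both libraries, covers counting error only, since the reads carry no molecular identifiers and so may be copies of each other, and is narrow here, with a median half-width over members of 0.0448 to 0.0676. The comparisons cover genes whose TPM, averaged over the libraries, exceeded 10, which kept 6523 genes and 77 of the 80 members, 46 of the large and 31 of the small subunit. The other 3, *Rpl3l*, *Rpl10l* and *Rpl39l*, are paralogs and are described apart. A gene was counted as higher or lower past 0.5 on the log2 scale.

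The members took the smallest share of the *Cd300a-/-* SiglecF lo library. They held 7.99%, 7.47%, 6.38% and 4.39% of all TPM. Of the counts they held 3.61%, 3.28%, 3.41% and 2.29%, and the exact binomial intervals were 3.61% to 3.62%, 3.275% to 3.29%, 3.40% to 3.42% and 2.28% to 2.30%. The *Cd300a-/-* SiglecF lo library was the lowest on both scales, while the order of the other 3 libraries differed between TPM and counts. The median member was at 936, 873, 779.9 and 502 TPM. Among the 77 members the levels ran from 105.5 to 3355 TPM in WT SiglecF hi and from 58.9 to 1839 TPM in *Cd300a-/-* SiglecF lo cells.

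**Figure D1:**
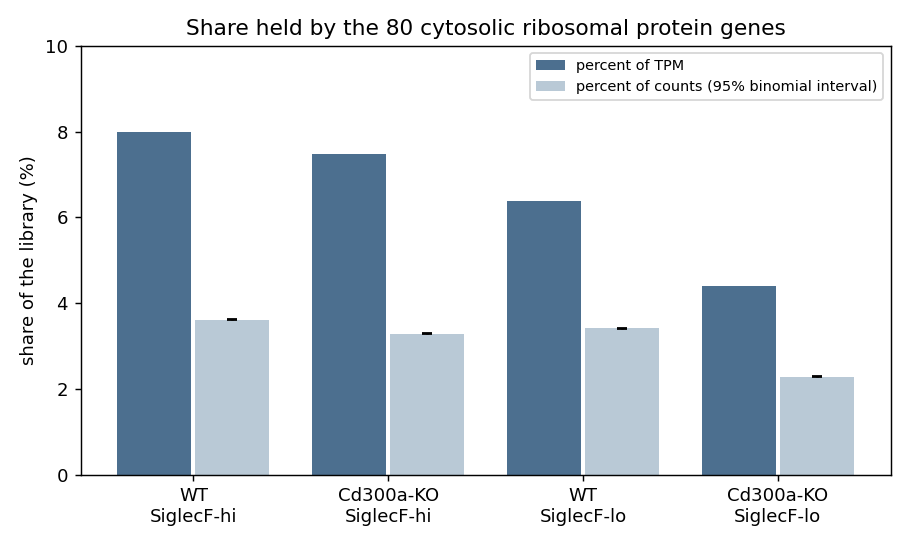
The dark bars show the percent of TPM and the light bars the percent of counts held by the 80 members in each of the 4 libraries, with 95% exact binomial intervals on the counts. The *Cd300a-/-* SiglecF lo library has the lowest bar of both kinds, at 4.39% of TPM and 2.29% of counts.

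A library's share depends on what else it holds. The 10 genes with the highest mean TPM, led by *S100a9* and *S100a8*, took 11.5%, 11.1%, 22.3% and 26.0% of TPM and were not members. With these left out of the total, the members held 9.03%, 8.40%, 8.22% and 5.93%, again least in *Cd300a-/-* SiglecF lo cells. In bulk samples, fewer cells of a type and less RNA per cell cannot be told apart. The same holds for the level of any member below.

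The comparison of genotypes asks how the loss of CD300a goes with expression in each subset. In SiglecF lo cells, all 77 members were lower in *Cd300a-/-* than in WT on TPM and on TMM-scaled CPM, where 51.2% of all genes were on TPM. Every counting interval of the 77 lay below 0, against 38.4% of all genes. The median ratio was -0.55 on TPM and -0.52 on TMM-scaled CPM, with TPM quartiles of -0.68 and -0.42, against -0.02 over all genes tested. Past 0.5, 47 of 77 members (61.0%) were lower, where 19.9% of all genes were, and no member was higher, where 16.4% of all genes were. Centring each ratio on the median of all genes left 45 members past -0.5, where 19.1% of all genes were. TMM-scaled CPM left 43, where 19.0% of all genes were.

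In SiglecF hi cells the members lay near WT. The median ratio was -0.11, with quartiles of -0.15 and -0.06, against 0.04 over all genes, and was -0.13 on TMM-scaled CPM. None of the 77 members passed 0.5 in either direction, where 3.31% of all genes were higher and 3.46% lower. Still, 70 members were below 0, where 43.6% of all genes were. Of these, 62 had an interval below 0, where 25.0% of all genes had one. Only *Rpl36* and *Rpl35a* had an interval above 0, where 2409 of the 6523 genes tested had one. The highest and lowest members differed by less than the threshold from WT, between -0.31 and 0.17. Beside this, fibroblast markers had a median of -0.64 with 3 of 5 lower past -0.5, cardiomyocyte markers 0.56 with 2 of 4 higher past 0.5, and neutrophil markers 0.26 with 2 of 7 higher past 0.5. The latter were *Ly6g*, at 1.82, and *Retnlg*, at 1.20. The medians for endothelial and macrophage markers were 0.38 and -0.11. The part of these markers was not tested.

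Set side by side, the ratio of *Cd300a-/-* to WT was lower in SiglecF lo than in SiglecF hi cells for 76 of 77 members (98.7%), against 54.0% of all genes. The exception was *Rps10*. The difference between the subsets was not tested. Across the 77 members, which are not independent replicates, the ratios of the subsets had a Pearson r of 0.02 and a Spearman rho of 0.06. The members with the lowest ratios differed between the subsets.

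Markers of other cells and of neutrophils are given beside this comparison. In SiglecF lo cells the neutrophil markers were higher in *Cd300a-/-* for 7 of 7 genes on TPM and on TMM-scaled CPM, 3 of them past 0.5 on TPM, and their summed level was 27432, 32371, 154341 and 202675 TPM, with *S100a9* the most abundant. *Retnlg*, a marker of young neutrophils, was at 590.1, 1360.0, 12110.0 and 24001 TPM. Of the 6 endothelial markers 5 passed the filter and all 5 were lower past -0.5 in *Cd300a-/-* than in WT SiglecF lo cells on TPM, with a list sum of 325.5, 429, 548 and 163 TPM and *Fabp4* the most abundant. None of the 6 was at 0 in every library, and *Pecam1* was at 23.2, 30.4, 57.5 and 15.6 TPM. Cardiomyocyte markers, led by *Mb*, summed to 60.2, 106, 62.7 and 33.1 TPM, and all 8 were detected, 4 of them past the filter and 2 of these lower past -0.5. The eosinophil list summed to 117, 119.8, 173 and 87.85 TPM, most of it from *Ear2*, which other myeloid cells also express, while the defining granule gene *Epx* was at 0 in the 4 libraries. The lymphocyte list summed to 4.65, 12.1, 11.2 and 14.4 TPM, led by *Cd3d*, and none of its 7 genes passed the filter. Macrophage markers had a median ratio of -0.14 in SiglecF lo cells, with 4 of 9 above 0, and fibroblast markers -0.04, with none of 5 past 0.5 in either direction. The part of these genes in the lower ribosomal protein mRNAs was not tested.

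**Figure D2:**
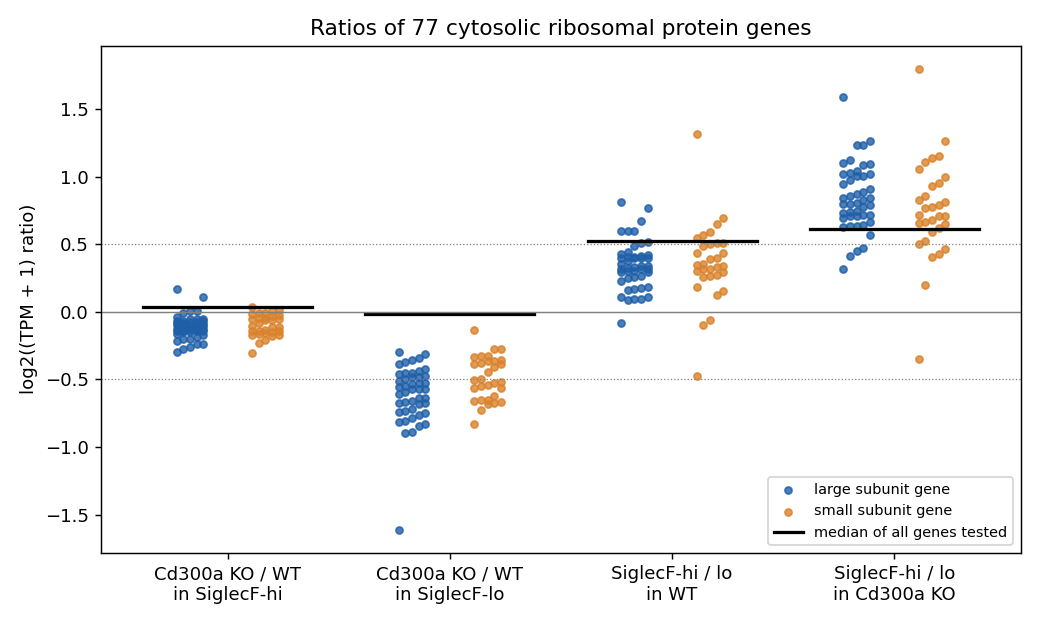
Each point is 1 of the 77 members (46 of the large subunit in blue, 31 of the small subunit in orange), the vertical axis is log2((TPM + 1) ratio), black bars are the medians of all 6523 genes tested and dotted lines mark 0.5 and -0.5. Between genotypes the members lie below the bar in SiglecF lo cells at a median of -0.55, and between subsets their median lies below the bar in WT and above it in *Cd300a-/-* cells, so that the WT direction turns once ratios are centred.

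Among the large subunit proteins, *Rpl10*, which joins the subunit late and helps to form its catalytic site, had the lowest ratio between genotypes in SiglecF lo cells. The gene (ENSMUSG00000008682, chromosome X, 73314418 to 73316741, plus strand, GRCm39) was at 1028, 937, 953 and 311 TPM, and the ratio was -1.61 (95% counting interval -1.70 to -1.53) among SiglecF lo and -0.13 (-0.18 to -0.09) in SiglecF hi cells. It was the only member past -1. The level of *Rpl10* was low in 1 library only, and its reads are uncertain for the reason given with its pseudogene below.

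*Rpl36* and *Rpl10a* followed. *Rpl36* (ENSMUSG00000057863, chromosome 17, 56920416 to 56921243, plus strand) was at 1346, 1511, 1196 and 643 TPM, and its ratio was -0.89 (-0.99 to -0.80) in SiglecF lo but 0.17 (0.11 to 0.23) in SiglecF hi cells. It was highest in *Cd300a-/-* SiglecF hi and lowest in *Cd300a-/-* SiglecF lo cells. *Rpl10a*, a protein of the L1 stalk near the exit site, was at 721, 672, 604 and 325 TPM, with ratios of -0.89 (-0.97 to -0.81) and -0.10 (-0.15 to -0.05). The *Cd300a-/-* SiglecF lo library was again the lowest.

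*Rpl35a* also had opposite signs, at 968, 1045.5, 721 and 515 TPM. Its ratio between genotypes was 0.11 (0.06 to 0.16) among SiglecF hi and -0.48 (-0.56 to -0.41) in SiglecF lo cells. *Rpl17*, which lines the exit of the nascent peptide, was at 923, 752, 814 and 564 TPM, and *Rpl34* was at 393, 325, 303 and 200.3 TPM. These were, after *Rps10*, the lowest ratios in SiglecF hi cells, at -0.30 (-0.34 to -0.25) and -0.28 (-0.33 to -0.22), while in SiglecF lo cells they were -0.53 (-0.59 to -0.47) and -0.59 (-0.68 to -0.52). Both were lower in *Cd300a-/-* than in WT cells of either subset.

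*Rpl3*, which lies next to the catalytic site, was at 634, 596, 479.7 and 336 TPM, with a ratio in SiglecF lo cells of -0.51 (-0.58 to -0.45), or -0.489 on TMM-scaled CPM, just short of the threshold. *Rpl5*, which carries the small 5S rRNA and binds MDM2 when ribosome assembly fails, was at 566, 541, 405 and 225 TPM, with a ratio of -0.84 (-0.91 to -0.78). *Rpl39*, a short protein of the exit tunnel, was at 993, 861, 788 and 621 TPM, with a ratio of -0.34 (-0.43 to -0.26). All 3 were lowest in the *Cd300a-/-* SiglecF lo library, and *Rpl5* by the most.

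The P-stalk proteins recruit elongation factors to the large subunit. *Rplp0*, its base, was at 1543, 1462, 1159 and 944 TPM, *Rplp1* at 3355, 3128, 2105 and 1464 TPM and *Rplp2* at 905, 873, 688 and 502 TPM. Their ratios between genotypes were -0.30 (-0.34 to -0.25), -0.52 (-0.58 to -0.47) and -0.45 (-0.53 to -0.39) in SiglecF lo cells, and -0.08 (-0.11 to -0.05), -0.10 (-0.14 to -0.07) and -0.05 (-0.10 to -0.01) in SiglecF hi cells. All 3 stalk genes had the same order of libraries, and *Rplp0* had the least negative ratio of the 3 in SiglecF lo cells.

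Among the small subunit proteins, *Rps9*, which lies at the mRNA entry, differed least between genotypes in SiglecF lo cells. The gene (ENSMUSG00000006333, chromosome 7, 3706992 to 3709896, plus strand) was at 1106, 1099.8, 1539 and 1403 TPM, with ratios of -0.13 (-0.17 to -0.10) among SiglecF lo and -0.01 (-0.04 to 0.02) in SiglecF hi cells. On TPM, *Rps9* was the only one of the 77 members that was not lowest in *Cd300a-/-* SiglecF lo cells, and both SiglecF lo libraries were above both SiglecF hi libraries. On TMM-scaled CPM, 65 of 77 members were lowest in *Cd300a-/-* SiglecF lo cells.

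*Rps10* was at 498, 402, 367 and 304 TPM and had like ratios in both subsets, -0.27 (-0.35 to -0.20) among SiglecF lo and -0.31 (-0.36 to -0.26) in SiglecF hi cells. *Rpsa*, also known as the laminin receptor precursor, was at 698, 645, 444 and 366 TPM, with -0.28 (-0.33 to -0.22) and -0.12 (-0.15 to -0.08). These stood with *Rps9* as the 3 least lowered members in SiglecF lo cells. *Rps6*, the substrate of the S6 kinases, was at 1645, 1473, 1324 and 932 TPM. Its ratio in SiglecF lo cells, -0.51 (-0.56 to -0.45), lay just past the threshold on TPM and just short of it on TMM-scaled CPM, at -0.48, and after centring, at -0.49. *Rps4x*, the X-linked form of its protein, was at 1257, 1162.5, 1020.2 and 809 TPM, with a ratio of -0.33 (-0.39 to -0.28). *Rps27a*, which encodes a fusion of ubiquitin to a ribosomal protein, was at 1176, 1094, 1228 and 955 TPM, with -0.36 (-0.42 to -0.31). All of these were lower in *Cd300a-/-* than in WT SiglecF lo cells on TPM and on TMM-scaled CPM.

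The comparison of subsets asks how SiglecF hi and SiglecF lo neutrophils differ within a genotype. Here the scale shifts all genes. The median ratio of SiglecF hi over SiglecF lo over all genes was 0.53 in WT and 0.61 in *Cd300a-/-*, where TMM-scaled CPM gave 0.002 and 0.05. On TPM the median of the members was 0.34 in WT, a sign that turned on TMM-scaled CPM and after centring, and 0.79 in *Cd300a-/-*, where it did not. Past 0.5, 16 of 77 members (20.8%) were higher in WT, against 51.9% of all genes, and 67 (87.0%) in *Cd300a-/-*, against 56.6%. No member was lower past -0.5 in either genotype, against 7.47% and 7.97% of all genes.

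Relative to the median of all genes, the members were lower in SiglecF hi cells of WT mice and higher in those of *Cd300a-/-* mice. The centred medians were -0.19 in WT, with 65 of 77 members below 0, and 0.17 in *Cd300a-/-*, with 64 above 0. TMM-scaled CPM gave -0.20 and 0.21. After centring, 1 member was higher and 4 were lower past 0.5 in WT, where 19.3% of all genes were higher and 20.9% lower. In *Cd300a-/-* cells 9 were higher and 1 was lower, against 21.2% and 23.6% of all genes. On TMM-scaled CPM 53 of 77 members (68.8%) were below 0 in WT and above 0 in *Cd300a-/-* cells, against 15.3% of all genes, while on TPM 3 were, against 7.33%. The WT direction thus turned with the scale, and the difference between the genotypes was not tested.

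The order of the 4 libraries depended on the scale in the same way. On TPM, 67 of 77 members were highest in WT SiglecF hi cells, against 35.2% of all genes. On TMM-scaled CPM it was 11 of 77, against 22.3%, and 65 were highest in WT SiglecF lo cells, against 24.4%. The *Cd300a-/-* SiglecF lo library was the lowest of the 4 for 76 of 77 members on TPM and for 65 on TMM-scaled CPM, against 46.4% and 33.9% of all genes.

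Marker lists also differed between the subsets. The neutrophil markers were lower in SiglecF hi than in SiglecF lo cells for 7 of 7 genes of both genotypes on both scales, with medians of -2.47 in WT and -2.54 in *Cd300a-/-* on TPM. The 5 endothelial markers past the filter had medians of -0.66 in WT, with 5 of 5 below 0, and 0.92 in *Cd300a-/-*, with 4 of 5 above 0, and on TMM-scaled CPM of -1.20 and 0.38 with the same counts. All 9 macrophage markers were higher in SiglecF hi than in SiglecF lo cells of both genotypes on TPM, 8 in WT and 9 in *Cd300a-/-* past 0.5, though on TMM-scaled CPM 8 of the 9 were higher in WT. Their sum was 15515, 14565, 5418 and 4770.0 TPM, with *Apoe* the most abundant at 8313, 8107, 2637 and 2109 TPM, and none was at 0. Fibroblast markers summed to 1854, 1300.0, 869 and 812 TPM, led by *Dcn*, with 6 of 6 detected and 5 past the filter, and these 5 were higher in SiglecF hi than in SiglecF lo cells of WT mice on both scales. In *Cd300a-/-* cells all 5 were higher on TPM, but 3 were higher and 2 lower on TMM-scaled CPM. *Mki67*, a gene of dividing cells, was at 17.7, 13.6, 3.695 and 6.17 TPM, and its list of precursor and proliferation genes, of which it alone of 7 passed the filter, summed to 41.4, 38.15, 14.35 and 23.8 TPM. *Top2a*, the other gene of dividing cells on it, was at 11.7, 7.315, 6.15 and 3.28 TPM, lower in *Cd300a-/-* than in WT SiglecF lo cells where *Mki67* was higher. Of the primary granule genes on that list, *Prtn3* had 108, 118, 15 and 65 counts, *Mpo* 0, 29, 28 and 7 counts, *Elane* 2, 0, 0 and 17 counts and *Ctsg* 0, 14, 0 and 0 counts, while *Ms4a3*, a membrane protein of granulocyte precursors, had 1, 0, 0 and 0 counts. None of the 5 was at 0 in all libraries, and *Prtn3* was lowest in WT SiglecF lo cells. The part of these lists in the levels of the members was not tested.

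*Rps27l*, a paralog of *Rps27* that is known as a target of p53, stood apart between the subsets. The gene (ENSMUSG00000036781, chromosome 9, 66853368 to 66856798, plus strand) was at 466, 478, 187 and 137 TPM. The ratio of SiglecF hi over SiglecF lo was 1.31 (1.18 to 1.45) in WT and 1.796 (1.66 to 1.95) in *Cd300a-/-*, the highest of the 77 members in both, and after centring it was 0.79 and 1.18. Both SiglecF hi libraries were above both SiglecF lo libraries. *Rps27* itself was at 2061, 2079.7, 2201.5 and 1507 TPM, highest in WT SiglecF lo cells, and its ratios were -0.10 (-0.14 to -0.05) and 0.46 (0.42 to 0.51), or -0.62 and -0.15 after centring. The paralogs thus differed in which library was highest.

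At the other end stood *Rps9*, with -0.48 (-0.51 to -0.44) in WT and -0.35 (-0.38 to -0.32) in *Cd300a-/-*, or -1.002 and -0.96 after centring. It was the only one of the 77 members that was lower in SiglecF hi cells of both genotypes on TPM. *Rps27a*, with -0.06 (-0.11 to -0.01) and 0.20 (0.14 to 0.25), and *Rpl37*, at 803, 773, 850.1 and 621 TPM with -0.08 (-0.14 to -0.02) and 0.31 (0.25 to 0.38), were also among the lowest. After centring *Rps27a* was at -0.59 and -0.42, and *Rpl37* at -0.61 and -0.30. In WT these and *Rps27* were the only others of the 77 members below 0 on TPM.

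After *Rps27l*, the highest ratios of SiglecF hi over SiglecF lo in WT were those of *Rpl35* and *Rpl12*. *Rpl35*, a protein at the tunnel exit, was at 318, 282, 181 and 129 TPM, with 0.81 (0.70 to 0.92) in WT and 1.12 (1.00 to 1.25) in *Cd300a-/-*. *Rpl12*, part of the stalk base, was at 600.2, 517, 352 and 283 TPM, with 0.77 (0.71 to 0.84) and 0.87 (0.80 to 0.94). After centring, the WT ratios of *Rpl35* and *Rpl12* were 0.28 and 0.24. In *Cd300a-/-* cells *Rpl10* and *Rpl5* came after *Rps27l*, at 1.59 (1.51 to 1.67) and 1.26 (1.21 to 1.33), or 0.97 and 0.65 after centring, both with their lowest level in the *Cd300a-/-* SiglecF lo library.

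**Figure D3:**
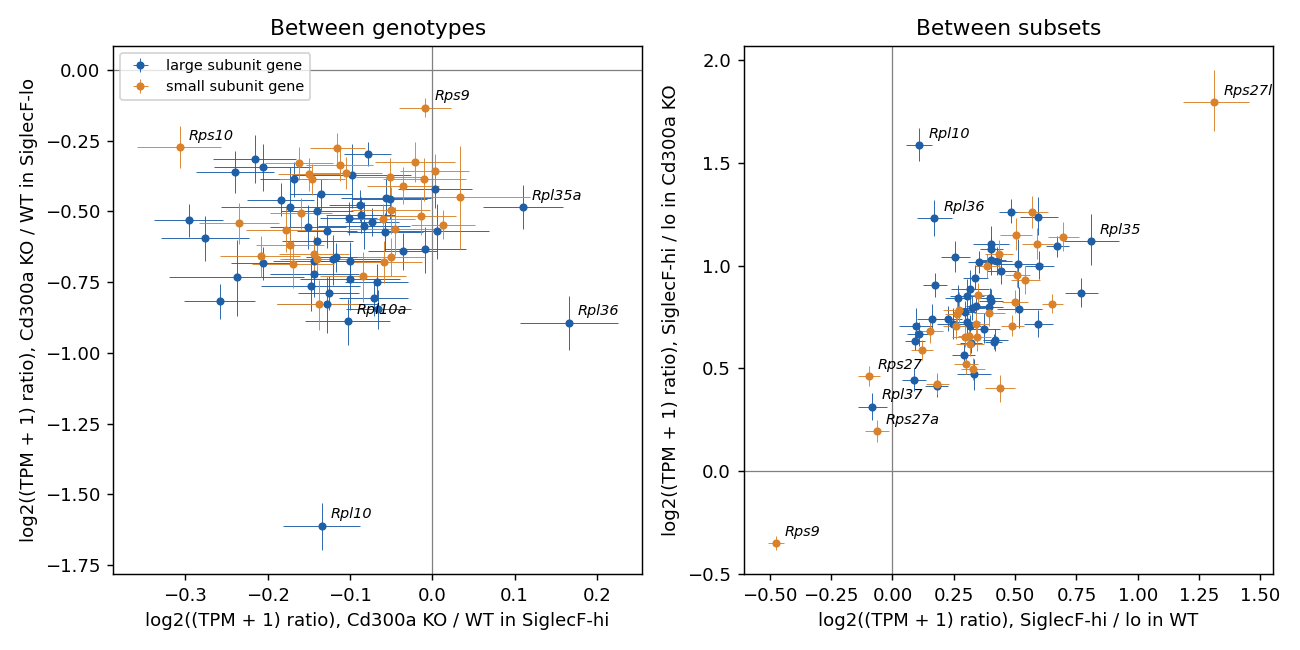
Each point is 1 of the 77 members with 95% counting intervals, and both axes are log2((TPM + 1) ratio), on the left *Cd300a-/-* to WT in SiglecF hi (horizontal) and SiglecF lo cells (vertical), on the right SiglecF hi to SiglecF lo in WT (horizontal) and *Cd300a-/-* cells (vertical). *Rpl10* lies lowest on the left at -1.61, and *Rps27l* and *Rps9* lie at opposite ends on the right, at 1.31 and -0.48 in WT before any centring.

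The ratios of the subsets in WT and in *Cd300a-/-* cells, which share no library, had a Pearson r of 0.69 and a Spearman rho of 0.58 across the 77 members. Without *Rps27l*, *Rps9* and *Rpl10*, chosen after their values were seen, they were 0.62 and 0.59 over 74 members. Members of 1 library share its depth and its scale, and are not independent.

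The subunits are compared by the medians of their members on TPM. In SiglecF lo cells the median ratio between genotypes was -0.57 over 46 large and -0.51 over 31 small subunit genes. Of these, 31 (67.4%) and 16 (51.6%) were past -0.5, where 19.9% of all genes were. In SiglecF hi cells the medians were -0.12 and -0.11. Between subsets they were 0.34 and 0.34 in WT, and 0.82 and 0.71 in *Cd300a-/-*, and on TMM-scaled CPM -0.20 and -0.20 in WT, where the sign turned, and 0.23 and 0.13 in *Cd300a-/-*. The difference of the medians on TPM, large minus small, was -0.07, -0.01, -0.01 and 0.10 in the same order. The 2nd of these changed sign when pseudogene counts were added. The interquartile range within a subunit ran from 0.0787 to 0.337, and none of these differences was tested. The large subunit held 56.8%, 56.4%, 56.15% and 53.8% of the members' TPM and 58.4%, 58.15%, 57.6% and 55.1% of their counts, lowest in *Cd300a-/-* SiglecF lo cells on both scales.

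On TPM, which is per length, the 5 most abundant members were *Rplp1*, *Rps29*, *Rpl41*, *Rps27* and *Rpl23a*. *Rps29* was at 2891, 2897, 2357.5 and 1839 TPM, *Rpl41*, the shortest of the ribosomal proteins, at 2614, 2485.5, 2064 and 1421 TPM and *Rpl23a* at 2201, 1959, 1645 and 1259 TPM. The 3 lowest past the filter were *Rps15a* at 105.5, 102, 87.4 and 58.9 TPM, *Rpl21* at 161, 151, 113 and 86.8 TPM and *Rps20* at 244, 211, 203 and 129 TPM. The mean TPM of the highest member was 28.4 times that of the lowest, though ribosomes hold nearly all of the proteins in equal numbers. All of these were lowest in the *Cd300a-/-* SiglecF lo library.

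This order went with the gene length that the deposited counts and RPKM imply (within 1.52% between libraries), from 442 bases for *Rpl36* to 6920 for *Rps15a*. Across the 77 members, the Spearman rho between mean TPM and this length was -0.69, and that between mean counts and length was 0.15. With counts set against the principal transcript of GENCODE M21 instead, an alternative chosen after seeing the data, *Rps27*, *Rpl41*, *Rplp1*, *Rps29* and *Rps9* came first, and *Rps15a*, *Rpl21* and *Rps20* last. A gene's own length cancels in its ratio between libraries, while the scale of TPM weights all genes by length.

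The 3 paralogs with little expression are given by their counts. *Rpl3l*, which replaces *Rpl3* in heart and skeletal muscle, had 56, 66, 90 and 113 counts, or 3.88, 5.11, 10.7 and 12.1 TPM. It was higher in both SiglecF lo than in both SiglecF hi libraries on TPM, and the ratio of SiglecF hi over SiglecF lo was -1.26 (-1.96 to -0.96) in WT and -1.10 (-1.71 to -0.80) in *Cd300a-/-*. Its ratio between genotypes was 0.32 (-0.14 to 0.94) among SiglecF hi and 0.17 (-0.23 to 0.60) in SiglecF lo cells, with both intervals holding 0. The cardiomyocyte markers are given beside it because the gene is known from muscle. *Mb* was at 13.0, 31.2, 7.96 and 1.30 TPM, *Tnni3* at 5.89, 12.1, 7.87 and 0.793 TPM, *Actc1* at 10.35, 11.1, 12.3 and 6.32 TPM, *Tnnt2* at 13.2, 17.9, 6.70 and 5.22 TPM and *Myl2* at 9.99, 16.9, 13.2 and 12.5 TPM. *Pln* was at 5.62, 12.1, 13.5 and 6.78 TPM, *Ryr2* at 0.0874, 0, 0.341 and 0 TPM and *Myh6* at 2.07, 4.62, 0.945 and 0.171 TPM. The 8 markers had no common order of the libraries. Of the 4 markers past the filter, all 4 on TPM and 3 on TMM-scaled CPM were higher in SiglecF hi than in SiglecF lo cells of *Cd300a-/-* mice, and *Rpl3l* was lower on both scales. In WT, 2 of the 4 were higher and 2 lower on both scales. Below the filter, *Pln* was lower in WT on TPM as *Rpl3l* was, at -1.13 (-1.59 to -0.94). *Tnni3*, at -0.36 (-0.95 to 0.12), and *Ryr2*, at -0.30, were also lower, and *Myh6* was higher, at 0.66 (0.54 to 1.76). In *Cd300a-/-* cells *Pln*, *Tnni3* and *Myh6* were higher, at 0.75, 2.87 and 2.26, and *Ryr2* was at 0 TPM in both subsets. The part of the cardiomyocyte markers in the level of *Rpl3l* was not tested.

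*Rpl10l*, known from the testis, had 9, 0, 0 and 19 counts, and *Rpl39l*, known from male germ cells, had 12, 1, 0 and 0 counts. A count of 0 allows up to 3 counts. *Rpl10l* was seen in 1 library of each genotype and each subset, and *Rpl39l* in SiglecF hi cells alone, nearly all of it in WT. No ratio is given for either. Being near copies of *Rpl10* and *Rpl39*, they may share reads with them.

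Reads of *Rpl10* are uncertain, since *Rpl10-ps3*, a pseudogene copy, had 8975, 8201, 3945 and 4918 counts where *Rpl10* had 8148, 6645, 4421 and 1593 counts. The pseudogene held 52.4%, 55.2%, 47.2% and 75.5% of the reads of both, most in *Cd300a-/-* SiglecF lo cells. On CPM by library size, the log2 ratio between genotypes in SiglecF lo cells was -1.66 for *Rpl10*, 0.13 for *Rpl10-ps3* and -0.55 for their sum. The ratio of the sum lay near the median of the members, and which copy the reads came from cannot be told apart here. Between subsets in *Cd300a-/-* cells the sum had 0.51 and *Rpl10* alone 1.38.

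The other pseudogenes took few reads. *Rpl9-ps6* had 48, 242, 8 and 9 counts, where *Rpl9* and this pseudogene together had 9446, 7875, 5186 and 4049 counts. It was highest in *Cd300a-/-* SiglecF hi cells, at 3.07% of both. The remaining 5, *Rplp2-ps1*, *Rps18-ps5*, *Rps18-ps6*, *Rpl36a-ps1* and *Rpl36-ps4*, had at most 14 counts in any library. Most ribosomal pseudogenes have other names and were not looked for, so sharing of reads by other members is not covered.

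Of 8 ribosomal proteins that the name rule leaves out, all 8 were lower in *Cd300a-/-* than in WT SiglecF lo cells. On TPM 4 of them were past -0.5, where 19.9% of all genes were, and the median of the 8 was -0.50. On TMM-scaled CPM 2 were past -0.5, where 19.0% of all genes were, and the median was -0.48. *Fau*, which encodes a small subunit protein fused to a ubiquitin-like part, was the most abundant at 2623, 2533, 3294 and 2291 TPM, and *Rack1*, a signalling scaffold on the small subunit, was at 893, 765, 651 and 456 TPM. *Rps3a1* was at 1632, 1571, 1322 and 938 TPM, and *Rpl22l1*, the paralog of *Rpl22*, at 173.5, 156.5, 173 and 80.6 TPM, with the lowest ratio of the 8, -1.09 (-1.31 to -0.90). Their median was -0.05 in SiglecF hi cells. Between subsets it was 0.33 in WT and 0.80 in *Cd300a-/-* cells on TPM, and -0.21 and 0.20 on TMM-scaled CPM, so that the WT sign turned as it did for the members. *Rpl36al*, the paralog of *Rpl36a*, was at 245, 249, 192 and 108 TPM, and *Rpl7l1*, the paralog of *Rpl7*, at 51.3, 63.4, 27.6 and 22.9 TPM. *Rps27rt*, a processed copy of *Rps27*, was at 35.95, 23.8, 14.6 and 12.7 TPM.

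The other translation genes were set beside the members. Elongation factors and other TOP mRNAs, 13 genes, had a median of -0.33 between genotypes in SiglecF lo cells. Of the 13, 4 were past -0.5 and none past 0.5, where 19.9% and 16.4% of all genes were. *Eef1a1*, which brings tRNAs to the ribosome, was at 5695, 5393, 3839 and 3054 TPM, and *Eef2*, which moves the ribosome along, at 967, 946, 699 and 629 TPM, with -0.15 (-0.19 to -0.11). *Npm1*, a nucleolar chaperone, at 272.5, 241, 197.5 and 108 TPM, was the lowest of the 13 with -0.86 (-0.97 to -0.77). *Pabpc1*, which binds poly(A) tails, was at 591.5, 579, 437 and 495 TPM and was higher, 0.18 (0.13 to 0.23). In SiglecF hi cells the median of this list was -0.08. Between subsets it was 0.46 in WT and 0.77 in *Cd300a-/-* cells on TPM, and -0.08 and 0.20 on TMM-scaled CPM, again with a WT sign that turned.

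Initiation factor 3, which prepares the small subunit, had 12 of 13 genes past the filter. Their median between genotypes was -0.45 in SiglecF lo cells, with 5 past -0.5, where 19.9% of all genes were. In SiglecF hi cells it was 0.04 with none past either threshold, where 3.46% of all genes were lower and 3.31% higher. *Eif3e* was at 207, 185, 147 and 73.2 TPM, the lowest ratio of the 12 in SiglecF lo cells, while *Eif3h* was at 296, 284, 179 and 185 TPM, the highest. The list medians between subsets were 0.72 in WT and 1.24 in *Cd300a-/-* cells on TPM, and 0.18 and 0.67 on TMM-scaled CPM.

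Ribosome biogenesis genes, whose products process rRNA and assemble subunits, had 19 of 24 past the filter. Between genotypes in SiglecF lo cells, 14 of 19 were lower past -0.5 and none was higher, with a median of -0.75. Of all genes, 19.9% were lower and 16.4% higher. In SiglecF hi cells the median was 0.19 and 2 were higher, where 3.31% of all genes were. *Nop10*, of the pseudouridylation complex, was at 84.2, 82.3, 45.6 and 20.4 TPM, with -1.13 (-1.48 to -0.85) in SiglecF lo cells. *Pes1*, needed for large subunit assembly, was at 51.4, 63.1, 28.9 and 13.5 TPM, with -1.05 (-1.34 to -0.87). *Gar1* had 129, 169, 87 and 14 counts, and its low count in *Cd300a-/-* SiglecF lo cells leaves a wide interval, -2.26 (-3.71 to -1.95). *Ddx21* at 49.3, 58.0, 21.3 and 21.2 TPM had -0.003 (-0.18 to 0.17). On TPM, 18 of the 19 were lowest in the same library as nearly all members, where 46.4% of all genes were. The exception was *Rrs1*, chosen after its values were seen. Between subsets the medians were 0.71 in WT and 1.48 in *Cd300a-/-* cells on TPM, and 0.19 and 0.93 on TMM-scaled CPM, above those of all genes on both scales.

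The controllers of initiation and TOP translation come next. Of 18 genes 12 passed the filter, with a median between genotypes of 0.20 among SiglecF lo and -0.02 in SiglecF hi cells. None of the 12 passed 0.5 in either direction on TPM. In SiglecF lo cells 8 of them were higher in *Cd300a-/-* than in WT and 4 were lower. *Larp1*, which binds the TOP motif, was at 33.5, 38.3, 12.8 and 14.9 TPM. *Eif4ebp1*, a repressor of initiation that mTOR inactivates, was at 90.7, 78.9, 111 and 138 TPM, with 0.31 (0.20 to 0.43). *Mtor* itself, at 9.52, 9.19, 3.57 and 6.225 TPM, was below the filter, with 0.66 (0.52 to 1.09). Also below it, *Tsc1* had 1.34 (1.39 to 2.14) and *Rps6kb2* had -0.76 (-1.26 to -0.55). *Eif4a1*, the helicase of initiation and the most abundant of the list, was at 717, 714, 556 and 469 TPM, with -0.25 (-0.30 to -0.19). *Rheb*, which activates mTOR, *Eif4e*, which binds the cap, and *Ddit4*, which restrains mTOR, were also lower in *Cd300a-/-* SiglecF lo cells, at -0.31 (-0.43 to -0.20), -0.24 (-0.42 to -0.08) and -0.33 (-0.59 to -0.10). Between subsets the medians were 0.64 in WT and 0.51 in *Cd300a-/-* cells on TPM, and 0.12 and -0.06 on TMM-scaled CPM, with a *Cd300a-/-* sign that turned.

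RNA polymerase I makes the rRNA. Of its genes and *Myc*, 4 of 9 passed the filter, with a median between genotypes of -0.07 in SiglecF lo cells and 0.14 in SiglecF hi cells, and between subsets of 0.61 in WT and 1.01 in *Cd300a-/-* cells on TPM, and 0.11 and 0.48 on TMM-scaled CPM. *Myc* was at 20.9, 19.4, 14.0 and 19.1 TPM and *Ubtf* at 31.0, 27.4, 25.4 and 16.05 TPM, with 0.42 (0.18 to 0.72) and -0.63 (-0.82 to -0.50) in SiglecF lo cells. Of 8 genes listed for ribosome quality control 7 were found and 3 passed the filter, with medians of 0.38 and 0.22 between genotypes in SiglecF lo and SiglecF hi cells, and between subsets of 1.19 in WT and 0.86 in *Cd300a-/-* cells on TPM, and 0.72 and 0.33 on TMM-scaled CPM. *Abce1*, which recycles ribosomes, was at 37.4, 37.7, 14.6 and 13.5 TPM. Of the 7 genes of these lists past the filter, *Ubtf* alone was lower past -0.5 between genotypes in SiglecF lo cells on TPM, where 19.9% of all genes were. *Hbs1l* alone was higher past 0.5, at 0.54 (0.34 to 0.86), where 16.4% of all genes were.

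The mitochondrial ribosome is built from another set of nuclear genes. Of 78 *Mrpl* and *Mrps* genes 58 passed the filter, and their sum was 3436, 3383, 2171 and 1473 TPM, led by *Mrpl52* at 435, 447, 194 and 109.6 TPM. Between genotypes in SiglecF lo cells their median was -0.42, with 25 of 58 lower and 5 higher past the threshold. Of all genes, 19.9% were lower and 16.4% higher. The median was that of the 58 mitochondrial genes. The mitochondrial genes were thus less uniform than the cytosolic members, from -2.29 to 1.61, but they also had far fewer counts. In SiglecF hi cells the median was -0.002. Between subsets it was 0.81 in WT and 1.14 in *Cd300a-/-*, and 0.28 and 0.60 on TMM-scaled CPM. In WT the cytosolic members lay below the median of all genes in this comparison and the mitochondrial ones above it on both scales.

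The starts of the members were read from the RefSeq promoter table (GRCm38.p6), which matched 60 of the 80. Each entry holds 250 bases before and 50 after an annotated start, and some genes have several. A TOP run, meaning a C at the first base followed by 4 or more C or T on the gene's strand, was found at an annotated start of 13 of the 60 (21.7%), against 3.01% of 27025 genes. The motif CCGGAAG, searched on both strands over the 300 bases, was in 25 members (41.7%) and 9.93% of genes. GCCATNTT, searched likewise, was in 11 (18.3%) and 6.96%. CTTTCC on the gene's strand, within 50 bases of the start on either side, was in 19 (31.7%) and 5.43%, and it can overlap a TOP run. A match is a description of letters, and an annotated start may lie some bases from the one in use.

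The bases around the start are shown for members that the results turn on, 15 before it and 15 from it, with any TOP run at the start in capitals. *Rps6* lies at chr4:86857353-86857382 on the minus strand, *Rps10* at chr17:27635230-27635259 on the minus strand, *Rps27* at chr3:90213634-90213663 on the minus strand, *Rpl35* at chr2:39005117-39005146 on the minus strand and *Rpl35a* at chr16:33056467-33056496 on the plus strand. These 5 hold a run at the start.
Rps6: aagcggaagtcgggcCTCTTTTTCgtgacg
Rps10: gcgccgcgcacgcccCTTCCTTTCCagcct
Rps27: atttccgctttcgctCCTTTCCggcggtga
Rpl35: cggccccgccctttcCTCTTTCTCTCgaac
Rpl35a: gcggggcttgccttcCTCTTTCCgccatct

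All but 13 of the 60 matched members have no such run at an annotated start, and 4 of them named above, chosen after their values were seen, are shown. They are *Rps9* at chr7:3704026-3704055 on the plus strand, *Rps27l* at chr9:66946071-66946100 on the plus strand, *Rpl10* at chrX:74270801-74270830 on the plus strand and *Rpl3l* at chr17:24727811-24727840 on the plus strand. *Rps15a*, the lowest of the 77 members on TPM, is among those with a run.
Rps9: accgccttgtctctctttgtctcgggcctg
Rps27l: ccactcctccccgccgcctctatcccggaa
Rpl10: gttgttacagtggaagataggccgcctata
Rpl3l: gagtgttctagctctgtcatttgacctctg

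Among the 57 matched members past the filter, those with a TOP run at the start (13) and those without (44) are given by their median ratios, and no difference between them was tested. Between genotypes in SiglecF lo cells these were -0.51 and -0.56, and in SiglecF hi cells -0.05 and -0.11. Between subsets they were 0.40 and 0.34 in WT and 0.80 and 0.80 in *Cd300a-/-*.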

How the data were processed

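The deposited values were used as the authors made them with CLC Genomics Workbench on GRCm39, the build named in the submitters' processing notes: counts per gene, RPKM, TPM and a signal named CPM. The authors' CPM hold a further factor for each library, 0.884, 0.893, 1.097 and 1.154 in the order of the report. These are the inverses of the TMM factors found here, 1.131, 1.120, 0.911 and 0.866. The authors' CPM thus lie on the same scale as TMM-scaled CPM here, but their deposited values were not used. The deposited RPKM served only to compute gene lengths. How reads that map to several genes were counted is not stated. The members and all lists were chosen with earlier results of these data known. Ratios were taken as log2((TPM + 1) ratio), and their 95% intervals are exact, conditional on the sum of both counts. TMM factors came from edgeR 4.0.16 in R 4.3.3. Other steps used Python 3.11.15, numpy 2.4.6, pandas 2.3.3, scipy 1.17.1 and matplotlib 3.10.9. Only a log2 ratio of CPM and the counting interval were tested on simulated data. Those were Poisson counts, which hold no copied reads.

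The genes named are members with a mean TPM of 10 or below, the 5 highest and 3 lowest by mean TPM above 10, the 3 highest and 3 lowest ratios in each of the 4 comparisons, any member past 0.5 against the members' median, chosen paralogs and stalk genes, and genes of the lists. *Rps6* and *Rpl3* are named as well, since their ratios between genotypes in SiglecF lo cells lay just past the threshold on TPM. *Rps4l* and *Znf598* were not analysed here. Lists outside the members were ribosomal proteins outside the name rule, elongation and TOP mRNAs, initiation factor 3, controllers of initiation, ribosome biogenesis, RNA polymerase I with *Myc*, ribosome quality control, mitochondrial ribosomal proteins, pseudogenes by name, and markers of neutrophils, their precursors, eosinophils, macrophages, fibroblasts, endothelial cells, cardiomyocytes and lymphocytes. No list was tested against chance.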

Additional observations from a re-analysis of the deposited data

Results flagged for a closer look

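In 5 members the sign of a ratio on TPM differed between the groups compared, with both 95% counting intervals clear of 0. No share of all genes under this rule is given, so it does not set the members apart from other genes. *Rpl35a* was, as the log2 TPM ratio between genotypes (*Cd300a-/-* over WT), at 0.11 among SiglecF hi cells but at -0.48 among SiglecF lo cells, and *Rpl36* had 0.17 and -0.89. These signs were the same on TMM-scaled CPM, at 0.09 and -0.46 for *Rpl35a* and 0.15 and -0.87 for *Rpl36*. The log2 TPM ratio between subsets (SiglecF hi over SiglecF lo) was -0.0951 in WT and 0.46 in *Cd300a-/-* cells for *Rps27*, -0.0624 and 0.20 for *Rps27a*, and -0.0813 and 0.31 for *Rpl37*. On TMM-scaled CPM these became -0.63 and -0.12, -0.60 and -0.39, and -0.62 and -0.27, so that the signs no longer differed. Other members gained a difference of sign on that scale, as *Rpl5* at -0.0559 and 0.68. *Rpl10*, whose reads are uncertain because of its pseudogene, was at -0.43 and 1.00. No counting intervals were computed on TMM-scaled CPM. On it 53 of 77 members were below 0 in WT and above 0 in *Cd300a-/-* cells, against 15.3% of all genes. On TPM 3 of 77 were, against 7.33% of all genes. With 1 library per group, none of these differences was tested.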

How the results depend on the processing

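No paired analysis was possible because each group has 1 library and no pairing of libraries is stated. The members' median ratio between genotypes in SiglecF lo cells was below 0 under every pseudocount, filter and scaling run, from -0.59 to -0.52, with 43 to 54 members lower past 0.5. Of all genes, 19.9% were lower past 0.5 on TPM, 19.1% centred and 19.0% with TMM. The median ratio between subsets (SiglecF hi over SiglecF lo) for WT was 0.34 on TPM but -0.20 on TMM-scaled CPM, -0.19 centred on all genes, 0.11 on CPM by library size and 0.11 with pseudogene counts added to that CPM. In *Cd300a-/-* cells it was 0.79, then 0.21, 0.17, 0.58 and 0.58. Members higher past 0.5 in SiglecF hi cells numbered 16 in WT, then 1, 1, 3 and 3 in that order and 1 past 1. In *Cd300a-/-* cells they numbered 67, then 13 with TMM, 9 centred, 49 on CPM, 49 with pseudogenes and 20 past 1. Of all genes, 51.9% were higher past 0.5 in WT on TPM, 20.1% with TMM and 19.3% centred. In *Cd300a-/-* cells these shares were 56.6%, 24.2% and 21.2%. Past 1 on TPM, 1325 of the 6523 genes tested were higher in WT and 1739 in *Cd300a-/-* cells. No share of all genes is given for CPM by library size. Members lower there went from 0 in WT to 4 with TMM, 4 centred, 1 on CPM, 1 with pseudogenes, 1 at a mean TPM over 1 and 1 with no filter, and in *Cd300a-/-* cells to 1, 1, 1, 1, 2 and 2. Between genotypes, a mean TPM over 1 or no filter brought 1 or 1 member higher in SiglecF lo and 1 or 2 lower in SiglecF hi cells, since these add the rare paralogs. In SiglecF lo cells 1 member was lower past 1, where 392 of the 6523 genes tested were. The large minus small subunit median between genotypes in SiglecF hi cells, -0.0138, became 0.00260 with pseudogenes added. The share of each library, in the order of the report, was 7.99%, 7.47%, 6.38% and 4.39% of TPM, 3.61%, 3.28%, 3.41% and 2.29% of counts, 9.03%, 8.40%, 8.22% and 5.93% without the 10 genes with the highest mean TPM and 8.51%, 7.93%, 6.69% and 4.59% without mitochondrial genes. CPM by library size without pseudogenes, and counts per kilobase of the principal transcript, by which the highest member exceeded the lowest 32.8 times and not 28.4, were chosen after seeing the data. Apart from the filters and the threshold, the cause was not tested. Of all comparisons of an alternative with the reported value, 86 stayed within a set limit, 44 moved further and 3 changed sign. For medians the limit was the median half-width of the counting intervals of single members. For shares it was the half-width of the binomial interval on counts, and for counts of members 1.5 times the reported count. The spread of levels, 28.4 against 32.8, had no such limit and is among the 44. Depth limits only *Rpl3l*, *Rpl10l* and *Rpl39l* among the members.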
